A study of Macaca mulatta with 24 samples.

Results

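The well measured transcripts of the fetal Rhesus macaque liver were compared between oral and intramuscular maternal betamethasone. They were the liver transcripts with at least 100 counts in each of the 8 liver libraries, after the deposited estimated counts had been rounded to whole numbers. Of the 45579 transcripts listed, 12483 (27.4%) met this rule, 7087 had no count in any liver library, and 25064 had enough counts to enter the test. The rule sets a minimum on the counts of every library alike and uses no difference between treatments.

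All 8 mothers received betamethasone, so every difference given here is between 2 regimens and none is against an untreated liver. For the clinical treatment, 4 mothers were injected intramuscularly with betamethasone phosphate plus betamethasone acetate, 2 doses of 0.25 mg/kg at a 24 h interval. For oral Beta-P, 4 mothers took betamethasone phosphate by mouth, 3 doses of 0.15 mg/kg at a 12 h interval. Delivery was at 5 days in either group. The gestational age in the labels was 132, 133, 133 and 133 days for clinical animals 1 to 4 and 132, 129, 127 and 131 days for oral animals 1 to 4, so age and treatment cannot be fully told apart. The route, the ester, the amount of each dose and the dosing interval all differ between the groups and cannot be told apart either. Oral animal 3 was sequenced in a different run from the other 7 livers. In lung, clinical animals 1 and 2 were in a different run from the other libraries. In hippocampus, clinical animals 1 to 3 were in a different run from clinical animal 4 and the oral animals. Run and treatment therefore cannot be fully told apart in those tissues.

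Betamethasone is a synthetic glucocorticoid that crosses the placenta. It binds the glucocorticoid receptor, which moves to the nucleus and raises or lowers the transcription of its target genes. The fetal liver makes plasma proteins, stores glycogen for the time after birth, and before term also houses blood-forming cells. The phosphate ester dissolves readily and acts quickly, whereas the acetate is released slowly from the site of injection. Each library is bulk RNA of the whole tissue, so in every value below fewer cells of a type and less RNA per cell cannot be told apart. The files do not pair transcript identifiers with gene names, so the transcripts are described by identifier, level and tissue pattern, and no statement on a gene or pathway could be made. Transcripts of the same gene could not be grouped either, so a count of transcripts is not a count of genes.

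The 8 libraries held 25803700 to 32122767 counts, and the well measured transcripts took 96.3% to 97.2% of them. The liver label was checked against the lung and hippocampus libraries of the same fetuses over 43042 transcripts: the lowest correlation between 2 liver libraries was 0.937, while the highest was 0.833 between a liver and a lung library and 0.721 between a liver and a hippocampus library. The liver values were estimated counts and those of lung and hippocampus whole counts, so tissue and way of counting cannot be told apart in this check. Levels are given as normalized CPM, the counts scaled to library size after TMM normalization, and are not corrected for transcript length. The mean level over 8 libraries ranged from 3.85 to 111546 CPM with a median of 18.0 CPM, which is a median of 520 counts per library. The standard deviation (SD) between animals of one treatment had a median of 0.22 on the log2 scale and a 95th percentile of 0.56, against a median of 0.55 for the tested transcripts outside the rule. Counting error alone gives an SD of 0.14 at 100 counts, so at this depth the spread between animals exceeded counting error for most of these transcripts.

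Most well measured transcripts varied little across the 8 livers. The ratio of the highest to the lowest library had a median of 1.61, it was under 1.5 for 4665 transcripts (37.4%), and it reached 2 for 3018 (24.2%), 4 for 393 and 10 for 52. The most variable transcript, with an SD of 1.81, was measured at 50.4, 7.62, 107 and 42.4 CPM with the clinical treatment and 7.31, 52.5, 129 and 9.17 CPM with oral Beta-P. High and low animals occurred in both treatments, and the log2 fold change was -0.06 with a standard error (SE) of 0.98.

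The distance between 2 libraries, as the root mean squared log2 difference over the 12483 transcripts, was 0.433 on average within a treatment and 0.460 between treatments, over a range of 0.375 to 0.613. The share of the summed squared deviation that lay between treatments was 20.6%, where 4 against 4 libraries with no effect would give 14.3% on average, and this share was not tested. Clinical animal 3 and oral animal 3 stood farthest from the other livers, with mean distances to their own treatment of 0.449 and 0.483, where the other 6 had 0.400 to 0.443. Oral animal 3 was the library farthest from the mean of the 8 for 23.9% of the transcripts and clinical animal 3 for 20.7%, against 7.26% to 10.6% for the others. The pair of these 2 animals had the largest distance of all 28 pairs. Without animal 3, the median SD was 0.18 in each treatment, against 0.21 with all 4 animals. Animal 3 was left out because it lay farthest, a choice that favours a lower SD, so this is a description only.

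**Figure D1:**
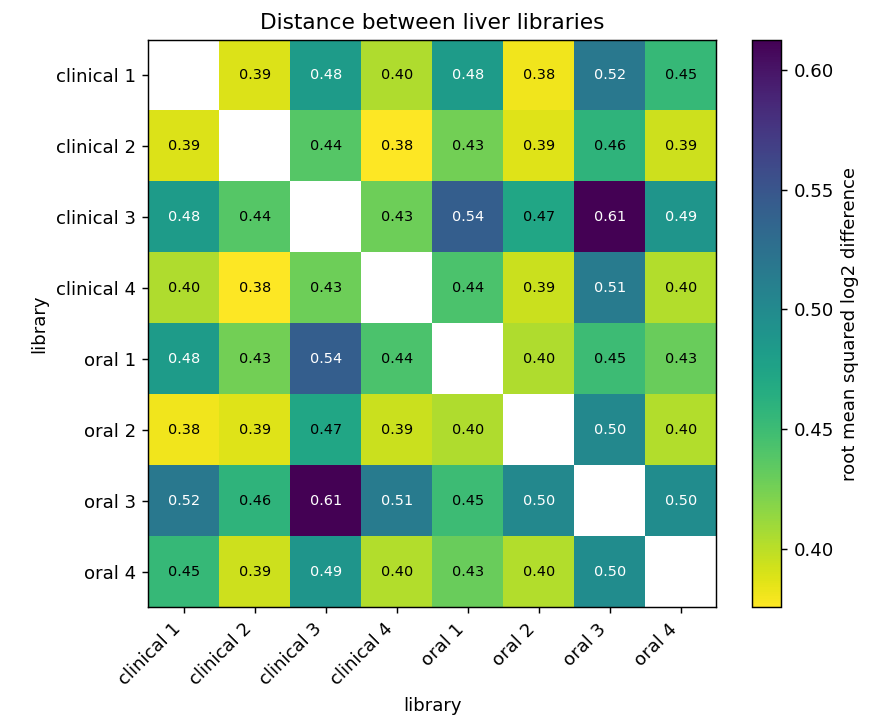
Distance between each pair of the 8 liver libraries, as the root mean squared log2 difference over the well measured transcripts, with the library on both axes and the distance in colour and figures. Clinical 3 and oral 3 are the darkest row and column and are farthest from each other (0.61), while libraries of the same treatment and of different treatments otherwise overlap.

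No well measured transcript passed edgeR's test for a difference between the regimens. A call in edgeR's quasi-likelihood test needed an adjusted p (Benjamini-Hochberg) below 0.1, an unadjusted p below 0.05 and 1.5-fold or more. The count was 0 of 12483, and 0% of all 25064 liver transcripts tested passed. The smallest adjusted p in edgeR was 0.473, shared by 8 of the well measured transcripts. At an unadjusted p below 0.05 there were 483 higher with oral Beta-P (3.87%) and 523 lower (4.19%), against 3.5% higher and 3.58% lower over all transcripts tested. DESeq2, the tool that the paper used, gave 118 with the same thresholds, and these are described after the edgeR results.

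The precision of these transcripts bounds how far the groups differed. The fit had no term for gestational age or run, so these bounds are not for the regimen alone. The log2 fold change, oral Beta-P over clinical, had a median of 0.00 and its 5th and 95th percentiles were -0.41 and 0.39. The median absolute log2 fold change was 0.13 with a median SE of 0.16, and over all tested transcripts these were 0.19 and 0.25. For 7732 transcripts (61.9%) the 95% interval of the difference lay within 1.5-fold in either direction, and for 11349 (90.9%) it lay within 2-fold. The interval lay wholly beyond 1.5-fold for 32. These intervals are for single transcripts and are not corrected for the number of transcripts.

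At 1.5-fold or more there were 266 transcripts higher with oral Beta-P (2.13%) and 250 lower (2.0%). Over all tested transcripts these shares were 7.62% and 7.68%, in a set that includes many of lower level and larger spread. At 2-fold or more there were 73 higher and 45 lower. All 4 animals of one treatment lay above all 4 of the other for 273 transcripts higher with oral Beta-P (2.19%) and 290 lower (2.32%), against 1.97% and 2.39% of all tested transcripts. Both shares were thus near the background.

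**Figure D2:**
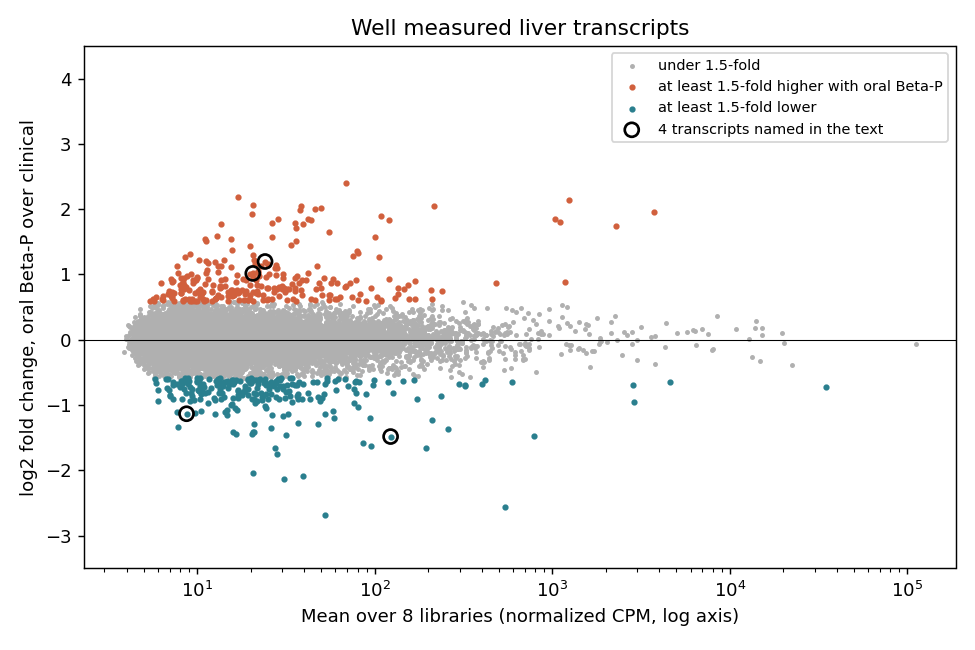
Log2 fold change, oral Beta-P over clinical, against the mean level of each well measured transcript in normalized CPM on a log axis. Each point is 1 of 12483 transcripts, the 266 at least 1.5-fold higher and the 250 at least 1.5-fold lower are coloured, and the 4 with circles are those named in the text; the cloud is centred on 0 at every level.

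The 4 transcripts named here have the smallest p in each direction, 2 higher and 2 lower with oral Beta-P. They were picked by this contrast, so their values are a description. In each of them the 4 animals of one treatment lay above the 4 of the other, which gives the smallest two-sided p that an exact permutation test over the 70 assignments allows, 0.0286. None passed edgeR, with an adjusted p of 0.473 each.

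The first, ENSMMUT00000038442.2, was at 14.6, 17.0, 14.6 and 12.2 CPM in clinical animals 1 to 4 and at 43.7, 27.3, 32.8 and 30.3 CPM in oral animals 1 to 4. Every oral library was higher than every clinical library, and oral animal 1 was the highest. The means were 14.6 ± 1.93 and 33.5 ± 7.12 CPM (SD, n = 4), and the log2 fold change was 1.20 (SE 0.17, 95% interval 0.82 to 1.58). The next, ENSMMUT00000042441.2, was at 14.4, 16.2, 9.16 and 14.7 CPM with the clinical treatment and at 25.7, 26.4, 29.4 and 28.4 CPM with oral Beta-P. Here the oral animals lay close together and clinical animal 3 was low. The means were 13.6 ± 3.05 and 27.5 ± 1.72 CPM (SD, n = 4), and the log2 fold change was 1.02 (SE 0.17, 95% interval 0.63 to 1.40).

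Of the pair that was lower with oral Beta-P, ENSMMUT00000029917.3 was at 11.8, 10.3, 9.71 and 16.0 CPM with the clinical treatment and at 6.24, 5.28, 4.31 and 5.95 CPM with oral Beta-P. The groups did not overlap, and clinical animal 4 was the highest. The means were 11.9 ± 2.86 and 5.44 ± 0.857 CPM (SD, n = 4), and the log2 fold change was -1.13 (SE 0.20). More abundant was ENSMMUT00000028727.3, at 163, 272, 135 and 152 CPM with the clinical treatment and 48.3, 55.5, 71.6 and 83.2 CPM with oral Beta-P. Clinical animal 2 was highest, and the lowest clinical animal was above every oral animal. The means were 181 ± 62.0 and 64.6 ± 15.8 CPM (SD, n = 4), and the log2 fold change was -1.48 (SE 0.26, 95% interval -2.08 to -0.89). This transcript was also the only one of the 4 with a liver level at least 4 times that in lung and in hippocampus.

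**Figure D3:**
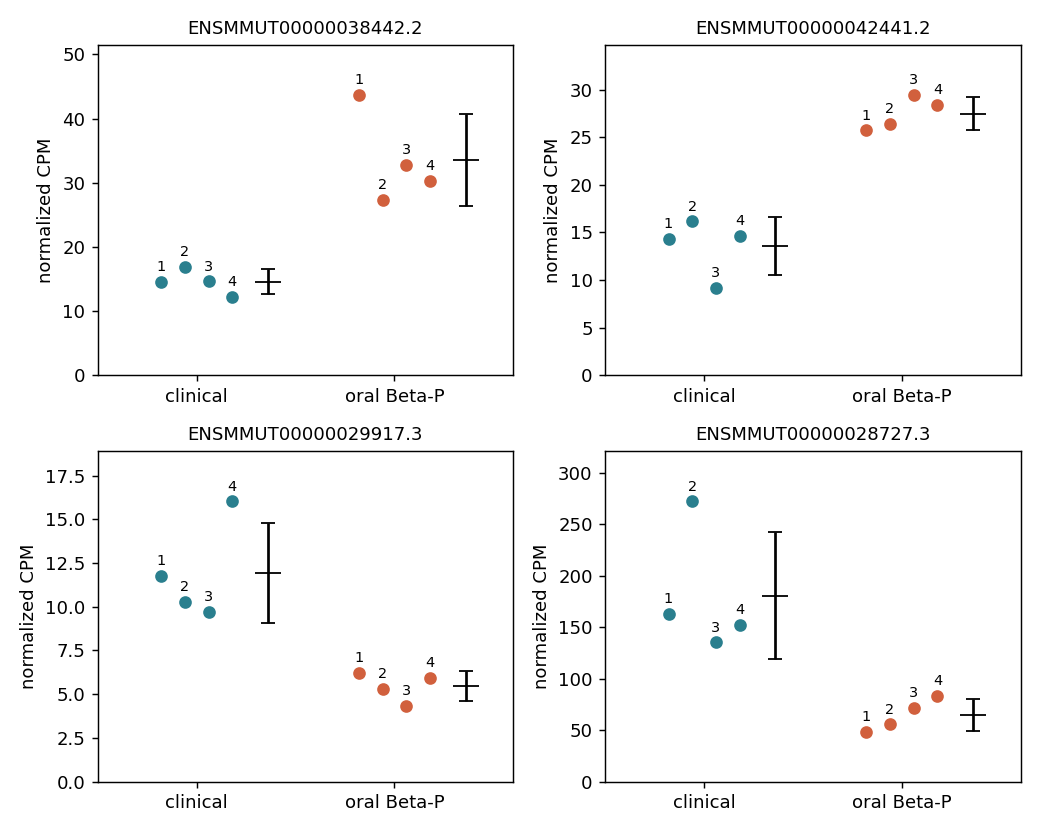
Normalized CPM of the 4 named transcripts in each liver library, one panel per transcript, with the animal number at each point, clinical animals on the left and oral Beta-P animals on the right, and the mean with 1 SD as the black bar. In every panel the 4 points of one treatment lie wholly above the 4 of the other.

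In the lung and hippocampus of the same fetuses the treatments overlapped for each of these 4 transcripts. In the lung, the log2 fold changes of ENSMMUT00000038442.2, ENSMMUT00000042441.2 and ENSMMUT00000029917.3 were 0.07 (SE 0.12), -0.02 (SE 0.15) and -0.07 (SE 0.09). That of ENSMMUT00000028727.3 was -0.56 (SE 0.25), from 14.4 ± 2.93 to 9.80 ± 3.21 CPM (SD, n = 4), with an edgeR adjusted p of 0.551. In the hippocampus the 4 log2 fold changes were 0.03, -0.15, -0.11 and 0.01. The difference between tissues, tested as an interaction in edgeR, did not pass for any of them either. For ENSMMUT00000038442.2 the liver effect exceeded that in lung by 1.13 (SE 0.21, adjusted p = 0.125) and that in hippocampus by 1.17 (SE 0.21, adjusted p = 0.116), and with the animal as a block these p-values were 0.341 and 0.961.

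DESeq2 called 52 well measured transcripts higher with oral Beta-P (0.417%) and 66 lower (0.529%), of the 12477 that received a p-value. Over all 38037 liver transcripts with a p-value in DESeq2 the shares were 0.373% and 0.405%. The paper compared the treatments with DESeq2 at these thresholds, and reported both induced and suppressed genes in liver. Both tools were fitted to the same 8 libraries, so their results for the 118 are not independent. All 118 had an unadjusted p below 0.05 and the same sign in edgeR, where their adjusted p was between 0.473 and 0.632. The treatments did not overlap in 91 of them, against 4.51% of all well measured transcripts, which the choice by DESeq2 favours. Their median absolute log2 fold change was 1.02. The 4 named transcripts were among them, with DESeq2 adjusted p-values of 7.6e-07 for ENSMMUT00000038442.2, 8.7e-05 for ENSMMUT00000042441.2, 0.00043 for ENSMMUT00000029917.3 and 4.1e-05 for ENSMMUT00000028727.3. Whether a well measured transcript differed between the regimens therefore depended on the tool.

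The 5 most abundant transcripts held 19.9% to 23.7% of the counts with the clinical treatment and 17.2% to 21.5% with oral Beta-P. The most abundant alone took 11.5% of the counts of the well measured transcripts, at 114181 ± 6543 CPM with the clinical treatment and 108911 ± 13257 CPM with oral Beta-P (SD, n = 4), a log2 fold change of -0.07 (SE 0.12). The second was at 30095, 46349, 44962 and 51039 CPM with the clinical treatment and 25326, 21083, 23396 and 34101 CPM with oral Beta-P. All oral animals but animal 4 were below the lowest clinical animal. The difference was -0.73 on the log2 scale (SE 0.20, 95% interval -1.20 to -0.26). The edgeR adjusted p was 0.594, the two-sided exact permutation test over animals gave p = 0.0571, and the DESeq2 adjusted p was 0.047. The log2 fold changes of the third to the fifth were -0.39, -0.04 and 0.10, with SEs of 0.22, 0.17 and 0.12. The first 4 were at least 4 times higher in liver than in lung and hippocampus. In the first and second together, 11 of the highest values were deposited in steps of 10000 counts, which is smaller than the spread between animals.

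Many of the transcripts at 1.5-fold or more dropped below that line when a single library was left out. Of these 516, 222 stayed at 1.5-fold with each library left out in turn, 294 dropped below it when some library was left out, and the sign turned in 8. A transcript just past the line can cross it with a small change, so a drop does not by itself show dependence on 1 animal. Leaving out clinical animal 3 took 126 below 1.5-fold, oral animal 3 117 and oral animal 1 104, while each other library took 48 to 86. There was no overlap between treatments in 135 of the 516, where 4.51% of all well measured and 4.36% of all tested transcripts had none. The choice by fold change favours such transcripts, so this count is a description only. The 89 transcripts that met both conditions, 40 higher and 49 lower, had a median level of 21.8 CPM.

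Among the 266 transcripts 1.5-fold or more higher with oral Beta-P, oral animals 1 and 3 were most often the highest. Because these transcripts were picked as higher with oral Beta-P, the top 2 of the 8 libraries were both oral in 245 of them. Oral animals 1 and 3 were that pair in 166 of the 245 (67.8%). Of the 3110 well measured transcripts with 2 oral libraries on top they were the pair in 895 (28.8%), and the 6 oral pairs would each have 16.7% if spread evenly. The 166 are thus chosen for high values in these 2 animals, and the values that follow describe them only. Their median fold over the clinical mean was 2.55 in oral animal 1 and 2.62 in oral animal 3, but 1.26 in oral animal 2 and 1.25 in oral animal 4. Clinical animals 2 and 4 were each at 1.17, and clinical animals 1 and 3 were at 0.87 and 0.83. These 166 had a median level of 19.9 CPM, and 22 were higher in liver than in the other tissues, 46 were at a like level in all 3 tissues and 98 were in between. The treatments did not overlap in 31 of them.

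Oral animals 1 and 3 were the oldest and the youngest of the oral group, at 132 and 127 days, and they came from different sequencing runs. In the lungs of the same fetuses this pair was highest in 12 of the 158 of these transcripts with a mean of at least 1 CPM there (7.59%), against 5.06% of the 12065 well measured liver transcripts at that level. In the hippocampus it was highest in 10 of 146 (6.85%), against 3.30% of 11893. Without both animals, a choice made after seeing the data that leaves 2 oral against 4 clinical libraries, 193 transcripts were at least 1.5-fold higher and 318 lower. Of the original 266 and 250, 96 and 176 were still past 1.5-fold. What sets these animals apart was not tested.

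The transcripts with the largest differences show this spread between animals plainly. Those of the same gene could not be grouped, so they need not be independent results. The 20 largest higher values ran from 5.25-fold down to 3.46-fold, the groups overlapped in 16 of them, and oral animals 1 and 3 were the top 2 in 19. The exception had the largest fold, at 20.5, 21.4, 25.8 and 20.7 CPM with the clinical treatment and 187, 21.6, 20.6 and 236 CPM with oral Beta-P. Oral animals 1 and 4 were high, and oral animals 2 and 3 were at the clinical level. The second largest was at 4.59, 8.60, 3.51 and 7.57 CPM with the clinical treatment and 61.9, 9.45, 32.6 and 6.60 CPM with oral Beta-P. Oral animals 1 and 3 were high here, and oral animal 4 lay within the clinical range. The third was more abundant, at 307, 522, 377 and 641 CPM with the clinical treatment and 2643, 909, 3999 and 576 CPM with oral Beta-P, again with animals 1 and 3 highest and animal 4 within the clinical range.

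**Figure D4:**
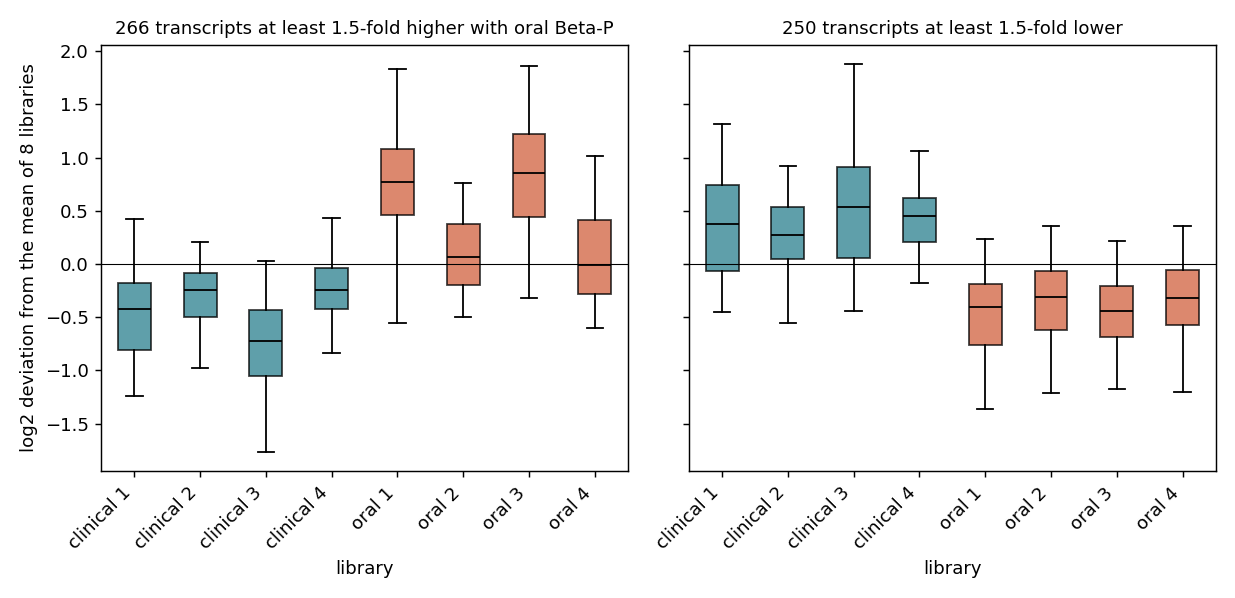
Log2 deviation of each liver library from the mean of the 8 libraries, for the 266 transcripts at least 1.5-fold higher (left) and the 250 at least 1.5-fold lower (right) with oral Beta-P. Boxes span the quartiles with the median as a line and whiskers reach the 5th and 95th percentiles; in the left panel oral 1 (median 0.77) and oral 3 (0.85) are high while oral 2 (0.07) and oral 4 (-0.01) are near 0, and in the right panel the 4 oral medians lie between -0.44 and -0.31.

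The 250 transcripts at least 1.5-fold lower with oral Beta-P were more evenly spread over the oral animals. The median log2 deviation from the mean of the 8 libraries was -0.40, -0.31, -0.44 and -0.32 in oral animals 1 to 4 and 0.37, 0.27, 0.53 and 0.45 in clinical animals 1 to 4. The highest library was a clinical one in 248 of the 250, which the choice of transcripts largely fixes, and it was clinical animal 3 in 107 (43.1%). Of the 6163 well measured transcripts with a clinical library on top it was clinical animal 3 in 37.7%, so this share differed little from that of transcripts not picked by treatment. The 20 largest lower values ran from 6.41-fold to 2.54-fold, without overlap in 9, and clinical animal 3 was the highest in 14. The largest was at 28.2, 94.3, 171 and 71.1 CPM with the clinical treatment and 9.13, 17.4, 19.7 and 10.6 CPM with oral Beta-P. The groups did not overlap although the clinical animals differed widely, and the log2 fold change was -2.68 (SE 0.52). The next was at 487, 518, 2349 and 350 CPM with the clinical treatment and 139, 192, 110 and 187 CPM with oral Beta-P. The log2 fold change here, -2.56 (SE 0.62), ranged from -2.83 to -1.52 as each library was left out. The edgeR adjusted p was 0.545 and 0.581, respectively.

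A single pair of livers had the same gestational age, clinical animal 1 and oral animal 1 at 132 days and in the same run. This comparison, added after seeing the data, has 1 animal per treatment and no test. Both libraries are also part of the 4 against 4 by which the named transcripts were chosen, and since the treatments did not overlap in these, the direction in this pair was fixed by that choice. The log2 difference in this pair was 1.58 for ENSMMUT00000038442.2, 0.84 for ENSMMUT00000042441.2, -0.91 for ENSMMUT00000029917.3 and -1.76 for ENSMMUT00000028727.3. For the second most abundant transcript it was -0.25.

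The well measured transcripts were also divided by how their liver level compares with lung and hippocampus, a division that does not use the treatment. A transcript was called liver-higher at 4 times or more the level in both other tissues, shared when within 2-fold of both, and intermediate otherwise. Since liver has estimated counts and the others whole counts, a difference in level between tissues cannot be told apart from one in counting. The 803 liver-higher transcripts (6.43%) had a median level of 63.0 CPM, and 35 of them had no count in lung and hippocampus. They took 44.7%, 45.1%, 44.4% and 46.7% of the counts in the clinical animals and 42.7%, 42.8%, 40.2% and 45.1% in the oral animals. The highest oral value lay within the clinical range and the other 3 lay below it, and the means were 45.2% ± 1.04 and 42.7% ± 1.98 (SD, n = 4). A share of counts is weighted to the most abundant transcripts. The 4 most abundant, all liver-higher, had log2 fold changes of -0.07, -0.73, -0.39 and -0.04. The median log2 fold change of the 803 was 0.03, so the lower share does not describe the class as a whole.

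Liver-higher transcripts varied more between animals than the others. Their median SD within a treatment was 0.34, against 0.22 for the 8146 intermediate and 0.21 for the 3534 shared transcripts, although their median level was higher. Their median absolute log2 fold change was 0.21, against 0.13 and 0.12, and 13.1% were at 1.5-fold or more, against 3.92% and 2.60%. An unadjusted p below 0.05 was found for 59 liver-higher transcripts on the higher side and 46 on the lower side, which together are 13.1% of them. For the intermediate transcripts there were 281 and 389 (8.22%), and for the shared transcripts 143 and 88 (6.54%). Non-overlapping treatments were less unequal among the classes, at 5.35%, 4.62% and 4.07%. The 95% interval lay within 1.5-fold for 32.3% of the liver-higher, 61.8% of the intermediate and 69.1% of the shared transcripts. Of the 266 transcripts 1.5-fold or more higher with oral Beta-P, 64 were liver-higher, 139 intermediate and 63 shared, and of the 250 lower these were 41, 180 and 29. With the class set at 2 times or 8 times the other tissues there were 1300 and 579 liver-higher transcripts, of which 11.5% and 13.3% were at 1.5-fold or more.

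**Figure D5:**
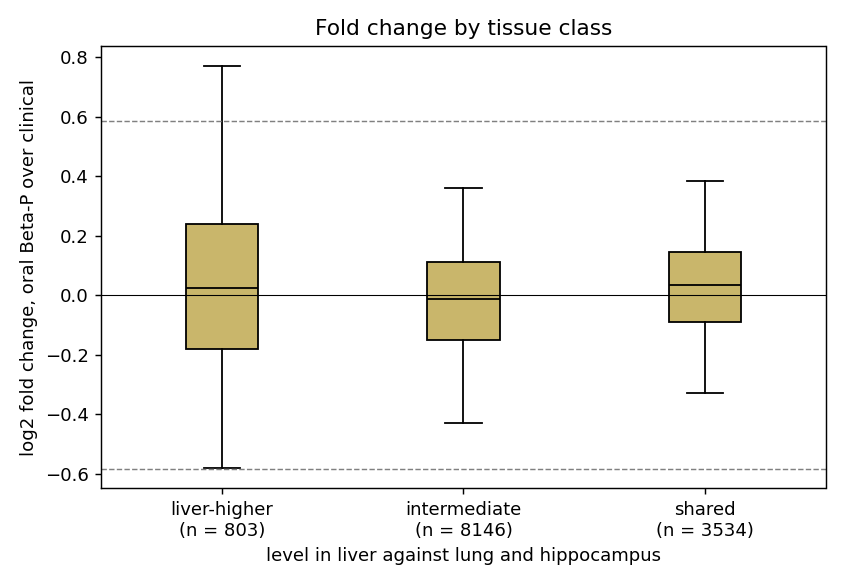
Log2 fold change, oral Beta-P over clinical, of the well measured transcripts by tissue class. Boxes span the quartiles with the median as a line, whiskers reach the 5th and 95th percentiles and dashed lines mark 1.5-fold; all 3 classes are centred near 0, and the 803 liver-higher transcripts are spread most widely.

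These shares differed less by mean level. In 4 bins of mean level of equal size, from the lowest to the highest, 2.76%, 4.39%, 5.19% and 4.20% of the transcripts were at 1.5-fold or more, and 6.12%, 8.27%, 9.07% and 8.78% had an unadjusted p below 0.05. The median SD within a treatment was 0.25, 0.23, 0.21 and 0.21. The interval lay within 1.5-fold for 52.6%, 60.2%, 67.7% and 67.2%.

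Transcripts on either side of the count minimum were much alike. The 205 whose lowest library held 100 to 104 counts had a median absolute log2 fold change of 0.17, and the 239 just outside, at 95 to 99 counts, had 0.21. A different set had a mean of at least 100 counts but a library under 100, and 2688 of those 2695 transcripts were tested. Of these, 599 (22.3%) were at 1.5-fold or more, 281 (10.5%) had an unadjusted p below 0.05 and 0 passed in edgeR. In 231 of them some library held 3 counts or fewer.

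The effect of the regimen in liver was also tested against that in the other tissues of the same fetuses, as an interaction of tissue and treatment in edgeR at a q-value below 0.1. Against lung, 0 of the 12483 well measured liver transcripts passed, where 0.0369% of all 29830 transcripts tested did, and 976 (7.82%) had an unadjusted p below 0.05, near the 7.21% of all tested. The smallest adjusted p was 0.125. Against hippocampus, 1 passed (0.00801%, against 0.0352% of all 31278), and 860 (6.89%) had an unadjusted p below 0.05, next to 6.88% of all tested. With the animal as a block 0 passed in either comparison. DESeq2 was not run for the interaction. Sequencing run was split unevenly between the treatments in lung and hippocampus, and the interaction fits did not include it. Liver values were estimated counts and the others whole counts, a difference that these fits did not include either.

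The transcript that passed was liver-higher and almost absent from hippocampus. In liver it was at 1708, 1383, 1297 and 1279 CPM with the clinical treatment and 1391, 1916, 2057 and 1346 CPM with oral Beta-P, so the treatments overlapped. In hippocampus it was at 0.638, 0.495, 0.726 and 0.809 CPM with the clinical treatment and 0.241, 0.229, 0.233 and 0.231 CPM with oral Beta-P. Most of the difference between tissues lay in the hippocampus, where the log2 fold change was -1.50 (SE 0.35) at a level under 1 CPM, while in liver it was 0.24 (SE 0.17). The difference was 1.75 (SE 0.29) with an adjusted p of 0.082, and 0.961 with the animal as a block. Most clinical hippocampus libraries came from another run than the oral ones, so run and treatment cannot be fully told apart there.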

How the data were processed

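Total RNA of liver was converted to poly(A) libraries and sequenced as paired-end 75 bp reads, which the authors aligned to the macaque build MMUL1.0 with STAR. The submitters' processing notes also name featureCounts and DESeq2. The authors deposited estimated counts per Ensembl transcript for liver, without normalization, of which 55.4% were not whole, and whole counts for lung and hippocampus. The annotation release and the step that made liver values non-whole are not given in the sources used here.

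Liver values were rounded. All liver transcripts that passed filterByExpr were fitted with edgeR 4.0.16 (quasi-likelihood test, TMM, limma 3.58.1, R 4.3.3), without covariates, and p-values were adjusted over all 25064. DESeq2 1.42.0 was the alternative tool here, and DESeq2 is the tool that the paper used for this comparison. SEs were derived from the F statistic. The interaction fits had no animal term. The labels pair liver, lung and hippocampus libraries by fetus, and the fit with the animal as a block was the alternative. Named were the 2 transcripts with the smallest p in each direction, and the 5 most abundant and 20 most extreme are described without identifiers. Identifiers could not be paired with gene names, so gene lists and markers were not used. Each library is of a different fetus. The transcripts and lists were chosen with earlier results of these data known. The scripts were tested on simulated data. Other alternatives were RLE or total-count scaling, other filters and count minimums, a robust fit, unrounded counts, gestational age as a covariate and each library left out. The 95% intervals of the log2 fold change were computed from these SEs, which include the spread between animals.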

Additional observations from a re-analysis of the deposited data

Results flagged for a closer look

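Of 34 groups of 4 library values checked for a lone value far from the other 3, 2 stood apart, where chance flags about 1 in 20 groups, or 1.7 here. The fourth most abundant transcript was at 19155 CPM in clinical animal 1, below the 20855 to 21138 CPM of the other clinical animals, and its log2 fold change between treatments was -0.04 (SE 0.17). The share of well measured transcripts that lay farthest from the mean in a given library was 23.9% for oral animal 3, against 8.05% to 10.6% for the other oral animals.

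The effect of the regimen differed between liver and hippocampus for 1 liver-higher transcript, by 1.75 on the log2 scale. Its edgeR adjusted p was 0.082, and 0.961 with the animal as a block. Sequencing run and treatment cannot be fully told apart in hippocampus.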

How the results depend on the processing

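With DESeq2, 118 well measured and 296 of all liver transcripts passed, against 0 in edgeR. The 516 at 1.5-fold or more became 1038 with gestational age as a covariate, 839 and 323 with at least 50 or 200 counts in every library, 1115 with a mean of at least 100 counts, and, chosen after seeing the data, 1699 in the 132 day pair. Those with an unadjusted p below 0.05, 1006, became 593 without oral replicates 1 and 3 (also chosen after seeing the data) and 676 with the age covariate. In the interaction with lung, 5 passed at 10 counts or more in every library. In that with hippocampus, 0 passed at this minimum and 0 with the animal as a replicate block, which changed no other call. Apart from the changed sets of transcripts, the cause of these changes was not tested. With each library left out, 0 well measured transcripts passed each time, and over all tested 0 to 2 passed (2 without clinical animal 1, 1 without clinical animal 2). An unadjusted p below 0.05 was found for 734 to 1133, and 503 to 694 were at 1.5-fold or more. The interaction with lung had 0 to 3 calls (3 without clinical animal 4, 2 without clinical animal 2 or oral animal 4, 1 without oral animal 1, 2 or 3) and that with hippocampus 0 to 2 (2 without clinical animal 2 or oral animal 4, 0 without clinical animal 1 or 3 or oral animal 2). The 4 named transcripts kept their direction under every alternative run, which their choice by this same contrast largely fixes. Their edgeR adjusted p-values were 0.344 to 0.677 as libraries were left out. With gestational age as a covariate the edgeR adjusted p was 0.376 for ENSMMUT00000038442.2 and 0.870 for each of the others. At the minimum of 100 counts, counting error is an SD of 0.14 on the log2 scale, beside a median SD between animals of 0.22. No alternative could separate treatment from dose, ester, interval and most of the age difference.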
